A study of Mus musculus with 12 samples.

Results

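Bleomycin was compared with vehicle in Pdgfra+ cells sorted from the lungs of wild-type (*WT*) mice. The comparison used 6 of the 12 libraries of the series, 3 labelled *WT* vehicle and 3 labelled *WT* bleo, chosen by their labels and not by any measured value, and 17418 of the 40760 genes in the deposited table passed the filter on low counts. The mice were male and, by the study's methods, C57BL/6 and 8 to 12 weeks old unless stated otherwise, and bleomycin (bleo) was given into the trachea as an aerosol. Cells were gated by flow cytometry for CD140a, the cell-surface protein encoded by *Pdgfra*. For the model in general the methods give bleo doses of 1.5 or 2 µg per g of body weight, with lung function and pathology read on day 21. Which of these doses, which day and how many mice stand behind a library are not given in the sources used here, so p-values may measure only technical spread between the samples. The other 6 libraries are labelled Pear1-/-, from mice with a knockout-first allele of *Pear1* throughout the body, 3 with vehicle and 3 with bleo, and serve here for the shared estimate of spread and for 1 contrast between the genotypes.

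Bleo is a glycopeptide that binds DNA with iron and oxygen and breaks its strands, and in the mouse lung it injures the alveolar epithelium, draws in monocytes and other leukocytes and is followed by scarring. Pdgfra+ cells of the healthy lung are mainly the fibroblasts of the alveolar wall and of the cuffs around airways and vessels. After injury, fibroblasts of these kinds can lose their resting gene expression and turn to laying down matrix, while macrophages that come from blood monocytes settle beside them.

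Between 6702948 and 9694538 reads per *WT* library were counted, so that the floor of 3 counts used for detection stood at between 0.309 and 0.448 CPM (counts scaled to the library total). How far libraries lay from each other was measured for each pair by a chi-square divided by its degrees of freedom, where a value of 1 means that nothing but counting noise separates them. It was between 1.35 and 1.49 among the bleo libraries and 1.58 between vehicle replicates 1 and 3. Vehicle replicate 2 stood apart, at 21.2 and 21.8 from its own group but between 1.73 and 2.67 from the 3 libraries labelled Pear1-/- vehicle. Its profile over the 178 immunoglobulin V genes above 2 CPM showed the same grouping, with a Pearson correlation of log2(CPM + 1) between 0.995 and 0.998 with those 3 libraries and of 0.711 and 0.714 with vehicle replicates 1 and 3, against 0.996 between replicates 1 and 3. Such correlations run across genes of one locus family, which are not independent. Counts of *Pear1* did not settle the label, since *Pear1* lay at 70.9, 58.9 and 64.4 CPM in the *WT* vehicle libraries and at 55.3, 53.9 and 57.5 CPM in the libraries labelled Pear1-/- vehicle. With bleo it was not lower in the libraries labelled Pear1-/-, at 39.9, 41.4 and 38.3 CPM, than in the *WT* libraries, at 28.8, 26.8 and 29.95 CPM. Counts per gene do not show which exons the reads came from, so they are no check on an allele that can still be transcribed in part. Because of vehicle replicate 2, several results below are also given without it or against it alone.

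The number of genes found above 3 counts was lower in bleo. With every library thinned once to 6702948 counts, the vehicle libraries held 25994, 19064 and 26285 such genes and the bleo libraries 16503, 16543 and 16579. The groups did not overlap (exact two-sided permutation test, p = 0.1, the smallest that 3 against 3 allows), and vehicle replicate 2 lay nearer to bleo than to its own group. Above 10 counts the mean difference was smaller, 17126 genes in vehicle against 13901 in bleo. Unprocessed pseudogenes, which are mostly silent copies of genes, showed the same split, with 447, 113 and 483 found in vehicle and 34, 32 and 40 in bleo. Genes outside the filter took 1.40%, 0.393% and 1.44% of the counts in vehicle and between 0.163% and 0.167% in bleo. Immunoglobulin constant genes took 6.08%, 9.27% and 5.99% of the counts in vehicle and between 1.33% and 1.34% in bleo, also without overlap.

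**Figure D1:**
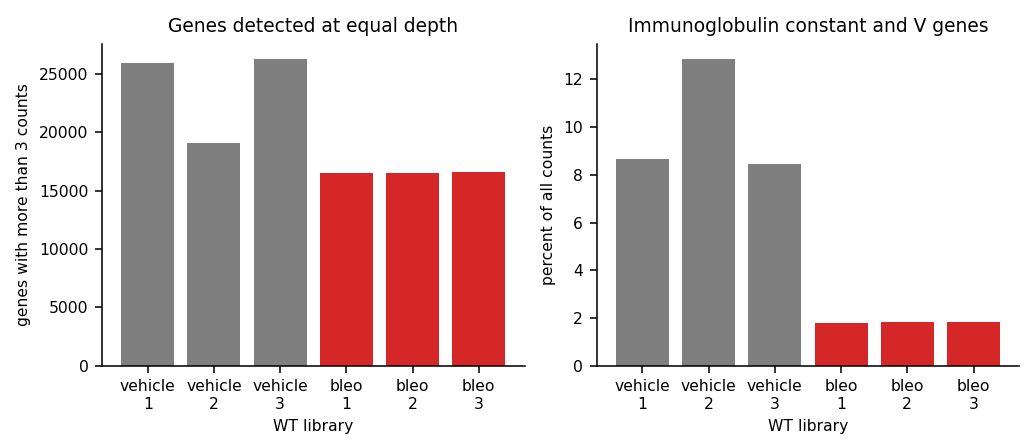
Left, genes with more than 3 counts in each *WT* library after thinning to 6702948 counts; right, percent of the deposited counts on immunoglobulin constant and V genes, with 1 bar per library, vehicle in grey and bleo in red. The bleo bars are level at between 16503 and 16579 genes, whereas vehicle replicate 2, at 19064, stands below replicates 1 and 3.

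Which genes differed between bleo and vehicle was asked with edgeR's quasi-likelihood test, and a gene was called when its fold change exceeded 2 and its Benjamini-Hochberg adjusted p was under 0.05. All adjusted p given for genes below come from this test. In all 5886 genes, or 33.8% of those tested, were called, 1824 higher in bleo (10.5%) and 4062 lower (23.3%). The median log2 fold change over all genes tested was -0.07, so these shares and this median are the background for every count of a gene list below. With vehicle replicate 2 left out, 9184 genes of the 20405 then passing the filter were called, and among the 17418 genes of the comparison above 2288 were called higher and 4099 lower. Against vehicle replicate 2 alone, an alternative chosen after seeing the data that takes the lone library to vary like the other groups, 5668 genes were called, and 1490 of the genes higher and 3098 of those lower were called in the same direction again.

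Falls and rises were not spread evenly over expression levels. Among the 3528 genes with a mean under 1 log2 CPM, 2051 were called lower and 212 higher, and their median log2 fold change was -1.65. In the 5248 genes at 5 log2 CPM or more the balance was the other way, with 689 called higher, 457 lower and a median of 0.21. Of all genes called lower, 3046, or 75.0%, had a mean under 3 log2 CPM, against 623 of those called higher, or 34.2%. A gene with so low a mean can pass the filter through its higher group alone, and 987 of the genes called lower, or 24.3%, had all 3 bleo libraries at the floor, so these counts are a description in which the filter has a share. The part of the difference in genes detected, described above, in these falls of scarce genes was not tested. Against vehicle replicate 2 alone the genes under 1 log2 CPM had a median of -1.24.

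**Figure D2:**
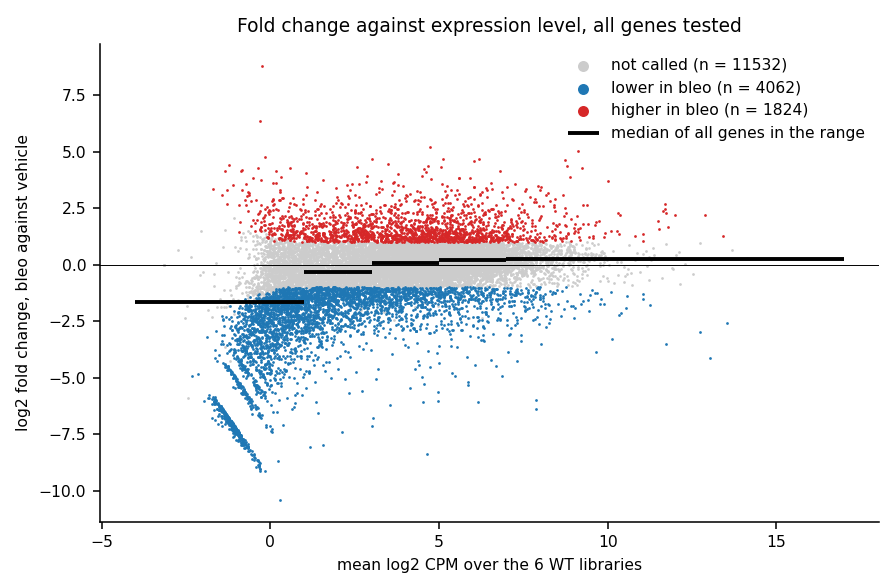
Log2 fold change of each of the 17418 genes (bleo against vehicle, *WT*) against its mean log2 CPM over the 6 libraries, with called genes in colour and black bars for the median of all genes in 5 ranges of level. Below 1 log2 CPM the median lies at -1.65, and from 5 log2 CPM upwards it lies above 0.

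The largest rises among genes at 5 log2 CPM or more were in genes of macrophages. *Spp1*, the matrix protein osteopontin, had 937, 761 and 919 normalized counts (counts divided by the size factor of the library) in the vehicle libraries and 27805, 28190.2 and 27334 in the bleo libraries, a log2 fold change of 5.004 (SE 0.083, adjusted p = 3.58e-19). *C1qc*, a chain of the complement starter C1q, had 816, 679.9 and 776 in vehicle and 18383, 18097 and 18859 in bleo (log2 fold change 4.62, SE 0.087). *Trem2*, a lipid receptor of macrophages, had 72.8, 34.5 and 97.3 in vehicle and 1311, 1375 and 1353 in bleo (log2 fold change 4.33, SE 0.20). All 3 bleo libraries lay above every vehicle library for these genes because they were chosen among genes without overlap. The same held for 1814 of the 1824 genes called higher. Vehicle replicate 2 gave the lowest level of *Spp1*, *C1qc* and *Trem2*. The other genes in the group of 10 were *Clec4n* (4.69), which encodes the fungal sensor dectin-2, *Fcrls* (4.68), an Fc receptor-like protein, *Ms4a7* (4.59), *C1qa* (4.34), *C1qb* (4.28), the chemokine receptor gene *Cx3cr1* (4.16) and the elastase gene *Mmp12* (3.86), all as log2 fold changes.

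Among the largest falls, 2 genes are predicted genes, *Gm10800* and *Gm21738*, whose reads could come from near-identical copies elsewhere, and their values of -5.99 and -5.31 are uncertain for that reason. *Igha* and *Jchain*, the heavy chain and the joining chain of IgA, fell by 4.13 and 3.501 on the log2 scale, and vehicle replicate 2 carried the highest level of each, 434029 and 144677 normalized counts. *Nr1d1*, which encodes the clock repressor REV-ERB alpha, had 2190.2, 1988 and 2073 normalized counts in vehicle and 120.3, 115 and 129.6 in bleo (log2 fold change -4.08, SE 0.091). The rest included genes of fibroblasts. *Inmt*, a methyltransferase abundant in alveolar fibroblasts, had 34443, 26892 and 31813 in vehicle and 3153, 3071 and 3201 in bleo (log2 fold change -3.29, SE 0.084, adjusted p = 9.06e-17), and *Dpep1*, *Pcolce2*, an enhancer of procollagen processing, and *Lrat*, a retinol-storing enzyme of lipid-laden fibroblasts, fell by 3.38, 3.12 and 3.11. *S100a8*, a neutrophil protein, fell by 3.12, but its vehicle values of 2212, 6985 and 2240.4 differed between replicate 2 and the others by more than those of any fibroblast gene named in this group.

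**Figure D3:**
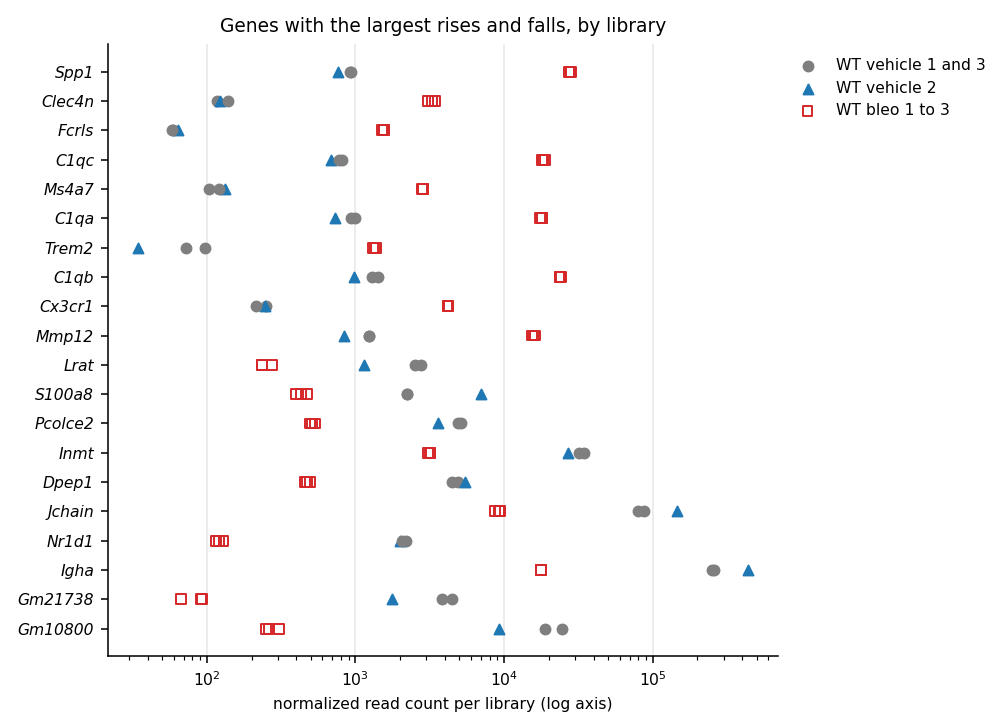
Normalized read counts (log axis) of the 10 largest rises and 10 largest falls among called genes at 5 log2 CPM or more, chosen among genes whose groups did not overlap and with V genes left out, with 1 symbol per *WT* library and vehicle replicate 2 as a blue triangle. The bleo squares of *Spp1* sit between 27334 and 28190.2 and its vehicle symbols between 761 and 937.

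Most genes of the resting lung fibroblast fell. Of 28 such genes 18 were called lower and 0 higher in this test, with a median log2 fold change of -1.46. The list was again 18 lower without vehicle replicate 2 and 17 lower against it alone, with medians of -1.44 and -1.29. *Pdgfra* itself (GRCm38 chromosome 5, 75152292 to 75198215), the receptor by whose protein the cells were sorted, had 4802, 4195 and 4698 normalized counts in vehicle and 1348, 1338 and 1394 in bleo, a log2 fold change of -1.74 (SE 0.068, adjusted p = 4.53e-14). The sorting marker was thus 3.33-fold lower in bleo, and in bulk RNA fewer cells of a type and less RNA per cell cannot be told apart. The summed level of 21 macrophage markers was 7.01 times as high in the same bleo libraries, and its part in these falls was not tested. *Gsn*, the actin-severing protein gelsolin, had 166933, 187038 and 158721 in vehicle and 21554, 20813 and 21357 in bleo, which was a log2 fold change of -2.996 (SE 0.064).

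Genes of both main kinds of lung fibroblast were among the falls. *Scara5* (-2.74), *Clec3b* (-2.72), *Dcn* (-1.92), the collagen-binding proteoglycan decorin, *Pi16* (-1.85), *Cd34* (-1.66) and *Dpt* (-1.31) are genes of adventitial fibroblasts, and all were called lower. *Itga8* (-2.44), an integrin chain, its ligand *Npnt* (-1.78), the transcription factor *Tcf21* (-1.55), *Limch1* (-1.45) and *Fgf10* (-1.47), a growth factor for the epithelium, are genes of alveolar fibroblasts and were also called lower. The remaining 10 genes of the list did not pass, with values from -0.995 for *Ces1d* to -0.23 for *Mfap5*, and the mesenchymal transcription factors *Foxf1*, *Tbx4* and *Tbx5* were among them at -0.85, -0.65 and -0.39.

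Collagen genes as a list did not share one direction. Of 17 chains *Col8a1*, a short-chain collagen, was the single one called higher, and *Col6a1*, *Col6a2* and *Col18a1* were called lower, with a median over the list of -0.02 that turned to between 0.01 and 0.08 when bleo replicate 1, 2 or 3 or vehicle replicate 1 was left out. *Col1a1*, a chain of the fibrillar type I collagen, had 33474, 31492 and 32191 normalized counts in vehicle and 42477, 42433 and 42504 in bleo. Those bleo values lay above all vehicle values, at a log2 fold change of 0.403 (SE 0.053, adjusted p = 1.83e-06), which is under the fold threshold. *Col3a1* stood at -0.201 and *Col1a2* at 0.18. For type VI collagen, which forms the beaded filaments around cells, *Col6a1* fell from 12394, 10238 and 11725 to 4673, 4662 and 4743 (log2 fold change -1.28, SE 0.076).

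Genes of fibroblast activation and matrix assembly were split, with 10 of 28 called higher, 2 lower and a median of 0.53. *Cthrc1*, a secreted protein of matrix-producing fibroblasts, had 24.3, 30.4 and 35.5 normalized counts in vehicle and 470.2, 508 and 492 in bleo (log2 fold change 4.03, SE 0.21, adjusted p = 1.16e-09). *Grem1*, which binds and blocks bone morphogenetic proteins, had 12.1, 7.103 and 16.03 in vehicle and 243, 235 and 212 in bleo (log2 fold change 4.31, SE 0.17). The groups were far apart for both genes whichever vehicle libraries were used, with log2 fold changes of 4.098 and 4.09 without vehicle replicate 2 and of 4.02 and 5.01 against it alone. Also called higher were *Fst* (2.87), which encodes the activin trap follistatin, the matrix proteins *Tnc* (2.702), *Fn1* (2.64), *Tgfbi* (2.01) and *Postn* (1.41), the protease inhibitor *Timp1* (1.63), the TGF-beta binding protein *Ltbp2* (1.697) and the transcription factor *Runx1* (1.86). Of these, macrophages are also known to express *Fn1*, *Tgfbi* and *Runx1*.

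Called lower were *Cyr61* (-1.81), a matricellular protein induced by mechanical stretch, and *Aspn* (-1.44), the small proteoglycan asporin, whose vehicle values of 730.1, 1466 and 877 were highest in replicate 2. *Ctgf*, a relative of *Cyr61*, stood at -0.92 without passing the fold threshold, and the crosslinking enzymes *Lox*, *Loxl1* and *Loxl2* at 0.202, -0.93 and -0.18. Neither *Fap* nor *Lrrc15*, markers of activated fibroblasts in other tissues, was called, at 0.02 and -0.17.

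Smooth muscle contractile genes gave 7 of 14 called lower, 0 called higher and a median of -0.63. *Acta2*, whose smooth muscle actin is the usual mark of a myofibroblast, had 3022, 3152 and 2963 normalized counts in vehicle and 2733, 2668 and 2667 in bleo, a log2 fold change of -0.17 (SE 0.064, adjusted p = 0.0269) far under the threshold. *Myh11*, the smooth muscle myosin heavy chain, had 734, 601 and 783 in vehicle and 116, 121 and 134 in bleo (log2 fold change -2.502, SE 0.11), and *Synpo2* fell by 2.47. *Tagln* stood at -0.04 and *Tpm1* at 0.64. Of 12 pericyte genes 5 were called lower (6, and 1 higher, against vehicle replicate 2 alone), led by *Lamc3* (-2.31) and *Abcc9* (-2.05), and their median was -0.70. *Pdgfrb*, which encodes the other PDGF receptor chain, stood at -0.44. Mesothelial genes, which mark the lung's outer lining and not the gated fibroblasts, summed to between 76.3 and 132 CPM in vehicle and between 27.9 and 29.3 CPM in bleo, with 7 of 8 called lower. *Muc16* had 201, 84.2 and 177 normalized counts in vehicle and 9.18, 9.18 and 13.2 in bleo, and *Bnc1* was at 0 in every bleo library against 10.9, 9.13 and 6.87 in vehicle.

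**Figure D4:**
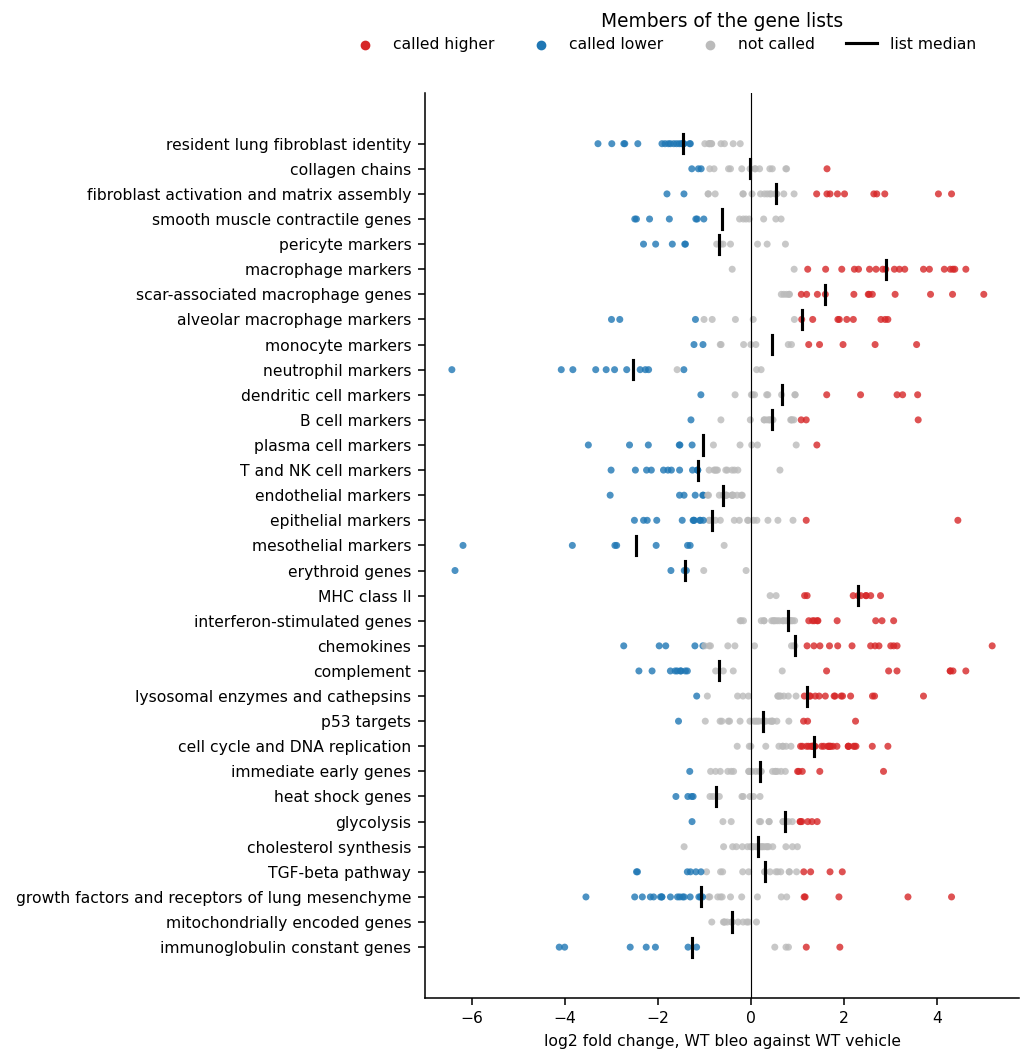
Log2 fold change (bleo against vehicle, *WT*) of every tested member of 33 gene lists, 1 point per gene and 1 row per list, red for called higher, blue for called lower, grey for not called, with a black bar at the list median. Macrophage and MHC class II genes lie to the right, at medians of 2.90 and 2.30, and neutrophil, mesothelial and fibroblast identity genes to the left, at -2.53, -2.47 and -1.46.

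Growth factors and receptors of the lung mesenchyme were mostly lower, 18 of 33 against 5 called higher, with a median of -1.09. Among ligands of the PDGF receptors, *Pdgfb* had 16.98, 35.5 and 24.04 normalized counts in vehicle and 257, 280.4 and 266 in bleo (log2 fold change 3.37, SE 0.18, adjusted p = 4.88e-12). *Pdgfc* was also called higher (1.89), *Pdgfa* stood at 0.65 under the fold threshold, and *Pdgfd* was called lower (-2.17). *Igf1* and *Vegfa*, which macrophages also make, rose by 1.16 and 1.14. Ligands that fibroblasts send to the alveolar epithelium did not all fall. *Fgf10*, *Fgf7* and *Wnt2b* fell, by 1.47, 1.92 and 3.55, while *Wnt2* stood at -0.91, under the fold threshold, and *Hgf* at 0.14. For FGF receptors, *Fgfr3* had 2034, 1334 and 2118 in vehicle and 304, 343 and 313 in bleo (log2 fold change -2.504, SE 0.15), and *Fgfr1*, *Fgfr2* and *Fgfr4* were also called lower (-1.31, -1.58 and -1.92). All 5 bone morphogenetic protein or IGF genes among the falls, *Bmp2*, *Bmp4*, *Bmp5*, *Bmp6* and *Igf2*, lay between -2.34 for *Igf2* and -1.04 for *Bmp2*.

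Counts for the TGF-beta pathway were near the background, with 4 of 24 called higher and 6 lower, and the median was 0.29. The ligand gene *Tgfb1* had 258, 276 and 216 normalized counts in vehicle and 451, 434 and 433 in bleo, a log2 fold change of 0.82 (SE 0.097, adjusted p = 4.59e-07) under the fold threshold, while *Tgfb3* was called lower (-1.305) and *Inhba*, an activin chain, higher (1.13). Among the receptors the signalling receptor *Tgfbr1* had 612, 648 and 638 in vehicle and 2484, 2445 and 2402 in bleo (log2 fold change 1.96, SE 0.071), and the ligand-presenting receptor *Tgfbr3* had 1545, 1708 and 1575 and 280.1, 301 and 287 (log2 fold change -2.47, SE 0.072). Latent TGF-beta binding proteins, which hold the ligand in the matrix, split as well, with *Ltbp2* higher (1.697), *Ltbp1* and *Ltbp4* lower (-1.37 and -2.44) and *Ltbp3* at 0.53. *Smad3* was called lower at -1.08, and *Smad2* and *Smad4* stood at 0.98 and 0.57. The feedback genes *Smad7* and *Skil* were not called, at 0.41 and 0.64.

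Macrophage genes had the highest median of the lists. Of 21 markers 19 were called higher and 0 lower, with a median log2 fold change of 2.90, or of 3.08 without vehicle replicate 2 and 2.87 against it alone. The summed level of the list lay between 3836 and 4083 CPM in vehicle and between 27519 and 27778 CPM in bleo, a ratio of 7.01. *Ptprc*, the leukocyte antigen CD45, had 3010.0, 3855 and 3043 normalized counts in vehicle and 7579, 7727 and 7542 in bleo (log2 fold change 1.22, SE 0.084), and against vehicle replicate 2 alone it stood at 0.998, just under the fold threshold. *Fcgr1*, the high-affinity IgG receptor, had 41.2, 55.8 and 51.5 in vehicle and 1059, 1024 and 1012 in bleo (log2 fold change 4.38, SE 0.10). *Adgre1*, *Csf1r* and *Cd68* rose by 3.19, 3.08 and 2.895. *Cd163* and *Mertk* were the members not called, at -0.41 and 0.93. A sort on CD140a is meant to leave macrophages out, and which cells the RNA of this list came from was not tested. Its part in the changes of genes that fibroblasts and macrophages share was not tested either.

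Genes described for macrophages of scars gave 12 of 17 called higher and 0 lower, with a median of 1.596. Beside *Spp1* and *Trem2*, described above, *Mmp12* had 1235, 842 and 1225 normalized counts in vehicle and 15886, 16198 and 15422 in bleo (log2 fold change 3.86, SE 0.15), and *Lpl*, *Syngr1* and *Fabp5* rose by 3.097, 2.61 and 2.54. Alveolar macrophage markers were mixed, 9 of 17 higher and 3 lower. *Siglecf*, their usual surface marker, had 21.8, 31.5 and 19.5 in vehicle and 99.2, 81.6 and 91.1 in bleo (log2 fold change 1.897, SE 0.21), and *Ear2* and *Itgax* rose by 2.94 and 2.88, whereas *Marco* and *Car4* stood at -0.34 and 0.05. *Fabp1* and *Krt79* were called lower at -3.003 and -2.82 from vehicle values of 10.9, 18.3 and 4.58 and 30.3, 32.5 and 44.6.

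For monocytes the picture depended on the vehicle library. Of 14 genes 5 were called higher and 2 lower, with a median of 0.45. Without vehicle replicate 2 the counts were 7 and 0 with a median of 0.74, and against it alone 4 and 2 with a median of 0.01. *Ccr2*, the receptor by which inflammatory monocytes enter tissue, had 389, 356 and 439.6 normalized counts in vehicle and 4503, 4683 and 4667 in bleo (log2 fold change 3.56, SE 0.086, adjusted p = 3.98e-17). *Ly6c2*, the other usual mark of these monocytes, had 869.5, 1067 and 835 in vehicle and 450.0, 435 and 457 in bleo, a log2 fold change of -1.04 that was -0.85 and no longer called without vehicle replicate 2. *Ifitm6* likewise went from -1.23 to -0.64. *F10*, coagulation factor X, rose by 2.67. Dendritic cell genes gave 5 of 15 higher and 1 lower, or 6 and 0 against vehicle replicate 2 alone. The highest were *Clec10a* (3.58) and *Mgl2* (3.26), lectins shared by macrophages and type 2 dendritic cells, while *Flt3*, *Xcr1* and *Zbtb46* stood at 0.33, 0.03 and -0.34, and *Siglech*, a plasmacytoid marker, was called lower (-1.08) but not against vehicle replicate 2 alone (-0.69).

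MHC class II genes, which present antigen to CD4 T cells, were mostly higher. Of 11 genes 9 were called higher and 0 lower, with a median of 2.30. The list summed to between 8092 and 9190 CPM in vehicle and between 39496 and 40949 CPM in bleo. *H2-Aa* had 12737, 12985 and 11938 normalized counts in vehicle and 68824, 68915 and 69722 in bleo (log2 fold change 2.47, SE 0.056, adjusted p = 1.90e-17). The peptide-loading genes *H2-DMb1* and *H2-DMa* rose by 2.78 and 2.57, and *Ciita*, the master regulator of the family, by 2.47. *H2-Ob* and *H2-Eb2* were not called, at 0.41 and 0.54. Class II genes are classically bound at a promoter module that includes an inverted CCAAT box. The 200 bases before the transcription start of the first listed gene and of the pair with the largest rises are shown because these genes were called higher, with CCAAT on either strand (read as CCAAT or ATTGG) in capitals, from RefSeq on GRCm38.p6.
H2-Aa (chr17:34287824-34288023, minus strand): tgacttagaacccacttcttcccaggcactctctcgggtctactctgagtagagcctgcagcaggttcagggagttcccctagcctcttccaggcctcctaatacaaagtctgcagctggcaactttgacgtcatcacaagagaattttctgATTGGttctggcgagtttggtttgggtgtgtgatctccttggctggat
H2-DMb1 (chr17:34152991-34153190, plus strand): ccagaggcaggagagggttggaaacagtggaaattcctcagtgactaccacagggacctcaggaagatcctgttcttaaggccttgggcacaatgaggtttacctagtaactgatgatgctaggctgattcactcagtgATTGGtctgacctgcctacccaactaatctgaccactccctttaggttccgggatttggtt
H2-DMa (chr17:34122632-34122831, plus strand, the first of 2 starts in the table): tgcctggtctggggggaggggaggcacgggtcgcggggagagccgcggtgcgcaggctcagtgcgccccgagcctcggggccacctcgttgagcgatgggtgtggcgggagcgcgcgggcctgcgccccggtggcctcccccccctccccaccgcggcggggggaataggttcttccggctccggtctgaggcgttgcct
The motif began 48 bases before the start of *H2-Aa* and 61 before that of *H2-DMb1*, and it was not in the stretch shown for *H2-DMa*. In the 250 bases before a start, 8 of the 8 class II genes that have a promoter in the table held it at 1 or more of their starts, against 33.8% of all 32851 promoters and 37.5% of all 27025 genes, and a match of 5 letters is a description and not a binding site.

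Chemokines moved in both directions. Of 27 tested, 13 were called higher and 5 lower, with a median of 0.94, and against vehicle replicate 2 alone 15 were higher and 8 lower. *Ccl12* had 41.2, 28.4 and 49.2 normalized counts in vehicle and 1357, 1475 and 1429 in bleo (log2 fold change 5.18, SE 0.17), and *Ccl2*, the main ligand of CCR2, had 724, 691 and 761 and 2370.5, 2327 and 2245 (log2 fold change 1.69, SE 0.067). *Ccl17* rose by 3.14, *Cxcl9* by 3.07 and *Ccl9* by 3.003. The falls were *Ccl11*, the eosinophil attractant eotaxin, at -2.74, the neutrophil attractants *Cxcl3* (-1.98) and *Cxcl5* (-1.84), *Cxcl14* (-1.21) and *Cxcl15* (-1.04). *Ccl11* and *Cxcl3* were again highest in vehicle replicate 2, whose 1182 and 772 normalized counts compare with 523 and 329 in replicate 1. *Cxcl12*, the fibroblast ligand of CXCR4, stood at -0.35.

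Complement genes also moved both ways, 7 of 20 higher and 9 lower with a median of -0.68. The genes called higher were the 3 chains of C1q, *Cfd* (4.28), *Cfp* (3.14) and the myeloid receptors *C3ar1* (2.96) and *C5ar1* (1.62). Among those lower were components that fibroblasts are known to secrete. *C3* had 20012, 38526 and 18982 normalized counts in vehicle and 5879, 5783 and 5885 in bleo (log2 fold change -2.13, SE 0.25), and *C7* fell by 2.41, *C4b* by 1.74, *C1s1* by 1.63, *C1ra* by 1.59 and the regulator *Serping1* by 1.37.

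Lysosomal genes gave 14 of 26 higher and 1 lower (2 lower against vehicle replicate 2 alone), with a median of 1.20. *Ctss*, a cathepsin of antigen-presenting cells, had 2547, 2599 and 2473 normalized counts in vehicle and 32868, 33334 and 32503 in bleo (log2 fold change 3.71, SE 0.059), *Ctsc* rose by 2.65 and *Ctsa* by 1.78. *Ctsl* and *Lamp2* stood at -0.18 and -0.06, and *Ctse*, the single member called lower (-1.17), was not called without vehicle replicate 2 (-0.701). Of 31 interferon-stimulated genes 9 were called higher and 0 lower, with a median of 0.79. *Isg15* had 241, 172 and 219.8 in vehicle and 550.1, 557 and 572 in bleo (log2 fold change 1.42, SE 0.11), and *Oas1a* and *Cxcl9* led the list at 2.81 and 3.07. Other interferon genes, among them *Ifit1* (-0.24) and *Ifit3* (0.44), did not pass.

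The summed levels of the neutrophil, T and NK cell and plasma cell lists were lower in bleo, and vehicle replicate 2 held the most of each. The neutrophil list summed to 738, 1974 and 722 CPM in the 3 vehicle libraries and to between 209 and 217 CPM in bleo. In it 11 of 14 genes were called lower and 0 higher (10 and 1 without vehicle replicate 2), and the median was -2.53, or -1.59 without vehicle replicate 2 and -3.25 against it alone. *S100a8* was given above, *Camp* had 146, 286 and 139.7 normalized counts in vehicle and 11.02, 7.14 and 15.2 in bleo (log2 fold change -4.08, SE 0.33), and *Elane* was at 0 in all bleo libraries against 7.28, 19.3 and 4.58 in vehicle. *Csf3r* and *Mmp8* were not called, at 0.21 and 0.12. The T and NK cell list summed to between 694 and 916 CPM in vehicle and between 359 and 376 CPM in bleo, with 12 of 23 called lower, 8 without vehicle replicate 2 (where 4099 of the 17418 genes were lower) and 18 against it alone. The pore-forming protein gene *Prf1* had 255, 384 and 223 in vehicle and 30.3, 32.6 and 43.5 in bleo (log2 fold change -3.01, SE 0.20). *Cd3e*, part of the T cell receptor complex, stood at -0.75 and was called at -1.07 against vehicle replicate 2 alone.

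The reading of B cell genes also rested on vehicle replicate 2. With it 3 of 17 were called higher and 1 lower, with a median of 0.44. Without it 7 were higher and 0 lower, with a median of 0.78, and against it alone 2 were higher and 1 lower, with a median of 0.03. *Cd72*, which macrophages can also carry, rose by 3.59, and *Fcer2a* and *Cr2* by 1.18 and 1.08. *Vpreb3* was called lower at -1.29 (adjusted p = 0.0358) with overlapping groups, and at -0.38 without vehicle replicate 2 it was not. Plasma cell genes gave 6 of 12 lower and *Slamf7* higher (1.41), or 6 lower and 2 higher without vehicle replicate 2, with *Jchain* at 79134, 144677 and 87406 in vehicle and 9227, 9338 and 8683 in bleo and *Tnfrsf17*, the survival receptor BCMA, falling by 2.62.

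Of 12 immunoglobulin constant genes 7 were called lower and 2 higher, with a median of -1.26. Without vehicle replicate 2 they were 5 lower and 5 higher, with a median of -0.51, and against it alone 7 lower and 1 higher, with a median of -2.08. *Igha* had 257662, 434029 and 249206 normalized counts in vehicle and 17816, 17789 and 17774 in bleo (log2 fold change -4.13, SE 0.21), whereas *Ighm*, the heavy chain of IgM, had 16359.7, 8798 and 15488 and 51233, 49878 and 50354 (log2 fold change 1.91, SE 0.20) and *Ighd*, that of IgD, rose by 1.19. *Ighd* stood at 0.95 against vehicle replicate 2 alone, where it was not called. The light chain gene *Igkc* fell by 2.601. Of 107 heavy V genes tested 68 were called lower and 3 higher, and of 95 kappa V genes 62 lower and 1 higher. These counts moved with vehicle replicate 2. Without it 54 heavy V genes were lower and 17 higher, with the median going from -2.60 to -1.38, and 54 kappa V genes were lower and 12 higher, with the median going from -2.46 to -1.52. Against it alone 89 heavy V genes were lower and 4 higher, and 88 kappa V genes lower and 1 higher. V gene segments resemble each other closely, so counts may be split between them, and each value is uncertain. Single V genes differed in both directions. *Ighv2-7* was at 0 in every vehicle library and had 50.5, 57.1 and 56.7 normalized counts in bleo, and *Ighv3-5* had 0, 1.01 and 0 and 45.00, 36.7 and 37.5. *Ighv1-56*, at 0 in every bleo library, had 65.5, 367 and 64.1 in vehicle. *Ighv8-5* had 419.6, 102 and 395 in vehicle and 0, 3.06 and 0 in bleo, and *Igkv4-61* had 2537, 8606 and 2386 and 9.18, 22.4 and 8.099. Within bleo the V gene profiles correlated at 0.993 or 0.994 for each of the 3 pairs of libraries, and across the groups at between 0.599 and 0.692. Within vehicle, replicate 2 stood at 0.711 and 0.714 with the others, so the spread inside that group was nearly as wide as the gap to bleo.

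Markers of endothelium and epithelium had lower summed levels in bleo. Endothelial genes summed to between 1015 and 1040 CPM in vehicle and between 568 and 604 CPM in bleo, with a median of -0.60. The 6 of 21 called lower, beside 0 higher, were near the background, and without vehicle replicate 2 they were 4. *Pecam1* stood at -0.54, under the fold threshold, while *Ednrb* had 201, 209 and 230.1 normalized counts in vehicle and 31.2, 20.4 and 25.3 in bleo (log2 fold change -3.03, SE 0.16) and the VEGF receptor gene *Kdr* fell by 1.54. Epithelial genes summed to between 5826 and 7096 CPM in vehicle and between 2308 and 2327 CPM in bleo, with 11 of 26 lower and 2 higher, or 1 higher against vehicle replicate 2 alone. *Foxj1*, the regulator of motile cilia, fell by 2.51, the secretory gene *Scgb1a1* by 2.24 and surfactant protein C, *Sftpc*, by 1.22. *Epcam* stood at 0.36. The genes higher were *Napsa* (1.18), a protease of type II cells that was not called against vehicle replicate 2 alone (0.89), and the airway secretory gene *Bpifa1*, with 41.2, 5.07 and 26.3 in vehicle and 525, 523 and 471 in bleo (log2 fold change 4.45, SE 0.31). Erythroid genes were scarce, between 18.3 and 34.0 CPM in vehicle and between 7.74 and 9.05 CPM in bleo, with 4 of 6 tested called lower.

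Cell division genes were higher. Of 37 genes of the cell cycle and DNA replication 28 were called higher and 0 lower, with a median of 1.36, and 28 were called higher without vehicle replicate 2 and also against it alone. *Mki67*, the proliferation antigen, had 88.5, 97.4 and 89.3 normalized counts in vehicle and 445, 441 and 422 in bleo (log2 fold change 2.26, SE 0.12, adjusted p = 2.80e-12). The mitotic kinase gene *Aurkb* had 16.98, 17.2 and 12.6 in vehicle and 121, 107 and 132 in bleo (log2 fold change 2.94, SE 0.20), and *Ccnb2*, a mitotic cyclin, had 49.7, 45.7 and 32.1 and 256, 264 and 251 (log2 fold change 2.61, SE 0.14). Other genes of mitosis were also high, with *Ccnb1*, *Cdc20* and *Plk1* at 2.23, 2.202 and 2.096. Among genes of DNA replication, *Mcm3* and *Mcm5* were called at 1.38 and 1.33, and *Mcm2*, *Pcna* and *Mcm4* were not, at 0.86, 0.598 and -0.01. Which cells divided cannot be read from these bulk libraries.

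Mitotic promoters are known for CCAAT boxes and for the cell cycle homology region (CHR), whose core reads TTTGAA. The 200 bases before the start of *Mki67* and *Ccnb2* are shown as examples of genes of the list that were called higher, with CCAAT or ATTGG and TTTGAA or TTCAAA, on both strands, in capitals.
Mki67 (chr7:135716380-135716579, minus strand): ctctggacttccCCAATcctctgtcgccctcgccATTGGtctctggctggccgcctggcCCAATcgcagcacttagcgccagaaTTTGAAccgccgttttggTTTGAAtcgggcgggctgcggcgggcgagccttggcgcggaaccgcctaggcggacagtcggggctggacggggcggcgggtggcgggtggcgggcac
Ccnb2 (chr9:70421555-70421754, minus strand): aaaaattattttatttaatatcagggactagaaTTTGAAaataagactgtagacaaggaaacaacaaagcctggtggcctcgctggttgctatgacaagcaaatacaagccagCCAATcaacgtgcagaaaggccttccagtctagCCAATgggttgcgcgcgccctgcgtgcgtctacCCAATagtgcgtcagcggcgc
*Mki67* held 3 CCAAT and 2 TTTGAA motifs in this stretch and *Ccnb2* held 3 and 1. The 3 CCAAT motifs of *Ccnb2* began 87, 54 and 21 bases before the start. Its TTTGAA lay upstream of them, beginning 167 bases before the start. Here too a match of letters is a description and not a binding site. Over the 250 bases, 23 of the 30 genes of the list with a promoter in the table held CCAAT at 1 or more starts, against 37.5% of all genes, and 9 of 30 held TTTGAA, against 18.3% of all genes. No motif overlapped another in the stretches shown.

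Targets of p53, the factor that answers DNA breaks, were mostly not called. Of 25 genes 3 were higher and 1 lower, with a median of 0.25, and 2 and 2 against vehicle replicate 2 alone. *Cdkn1a*, which encodes the cell cycle inhibitor p21, had 1547, 1723 and 1541 normalized counts in vehicle and 3633, 3564 and 3878 in bleo (log2 fold change 1.21, SE 0.068), and *Gdf15*, a stress cytokine, had 349, 310.5 and 346 and 1569.6, 1565 and 1592 (log2 fold change 2.25, SE 0.095). *Bax* rose by 1.13 and *Trp53inp1* fell by 1.56. The commonly used readouts *Mdm2*, *Ccng1*, *Phlda3* and *Eda2r* stood at 0.55, 0.45, 0.06 and -0.49.

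Genes that respond to the handling of cells were compared because sorting takes time. Immediate early genes summed to between 28062 and 28701 CPM in vehicle and between 28219 and 29025 CPM in bleo, with ranges that overlapped, and 5 of 26 were called higher and 1 lower. The 5 became 3 against vehicle replicate 2 alone, and also without vehicle replicate 1 or 3 and with DESeq2's test. *Fos* had 43767, 48056 and 41846 normalized counts in vehicle and 44978, 44561 and 44658 in bleo (log2 fold change 0.02, adjusted p = 0.783). *Ier5* and *Atf3* rose by 2.85 and 1.48, and *Egr1* fell by 1.32. Heat shock genes gave 4 of 12 lower and 0 higher, *Hspb1* falling by 1.62 and *Hsph1* by 1.36, while *Hspa1a* stood at -0.82. None of the 13 mitochondrially encoded genes was called in this test, with values between -0.85 for *mt-Cytb* and 0.11 for *mt-Nd6* and a median of -0.41, and their summed level was 20699 to 24291 CPM in vehicle and 14253 to 14703 CPM in bleo. All 7 that had an unadjusted p under 0.05 in edgeR's test were lower in bleo, by less than the fold threshold, and DESeq2 and limma also called 0.

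In metabolism, 6 of 18 genes of glycolysis were called higher and 1 lower, with a median of 0.72 that was 0.52 against vehicle replicate 2 alone, where 2 were called higher, and 3 were without vehicle replicate 3. *Eno1* had 1869, 2096 and 1839.7 normalized counts in vehicle and 4760.2, 4773 and 4731 in bleo (log2 fold change 1.31, SE 0.065), *Hk3*, a hexokinase of myeloid cells, rose by 1.42, and *Pfkm*, the muscle type of phosphofructokinase, fell by 1.27. Of 24 genes of cholesterol synthesis 0 were called in either direction, and *Hmgcs1* had 1041, 788 and 1135 in vehicle and 979, 1025 and 907 in bleo, with groups that overlapped. Without vehicle replicate 2, 1 was called in each direction. In edgeR's test 13 of the 24 had an unadjusted p under 0.05, of which 4 were lower, and DESeq2 called 0 and limma 1.

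*Pear1* (GRCm38 chromosome 3, 87747890 to 87824306), the gene disrupted in the other genotype, was itself lower in bleo. It had 576, 545 and 519 normalized counts in vehicle and 256, 239 and 266 in bleo (log2 fold change -1.09, SE 0.081, adjusted p = 6.31e-10). As for *Pdgfra*, which was also lower, fewer cells with this RNA and less of it per cell cannot be told apart in these libraries.

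Whether the bleo effect depended on the label of genotype was asked with the difference of both effects, *WT* minus Pear1-/- as labelled, in the same edgeR fit. Counts of *Pear1*, given above, are no check of these labels. With the same criteria 2701 genes, or 15.5%, were called, and 1664 of them were among the genes called in *WT*. Of all genes tested 33.8% were called in *WT*. Both contrasts use the same *WT* libraries, so an overlap is partly built in. Macrophage genes belonged here, with 16 of 21 called and each of the 16 higher in *WT*, and a median effect of 1.66 in the libraries labelled Pear1-/- beside 2.90 in *WT*. Collagen chains went the other way, with 12 of 17 lower in *WT* and 1 higher, and median effects of 1.12 in the libraries labelled Pear1-/- and -0.02 in *WT*. Genes of fibroblast activation gave 16 of 28 lower in *WT* and 0 higher, with medians of 1.78 and 0.53. Resident fibroblast genes fell in both, at medians of -1.03 and -1.46. Without vehicle replicate 2 the number of genes called for the difference was 4461, and against it alone 2305.

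**Figure D5:**
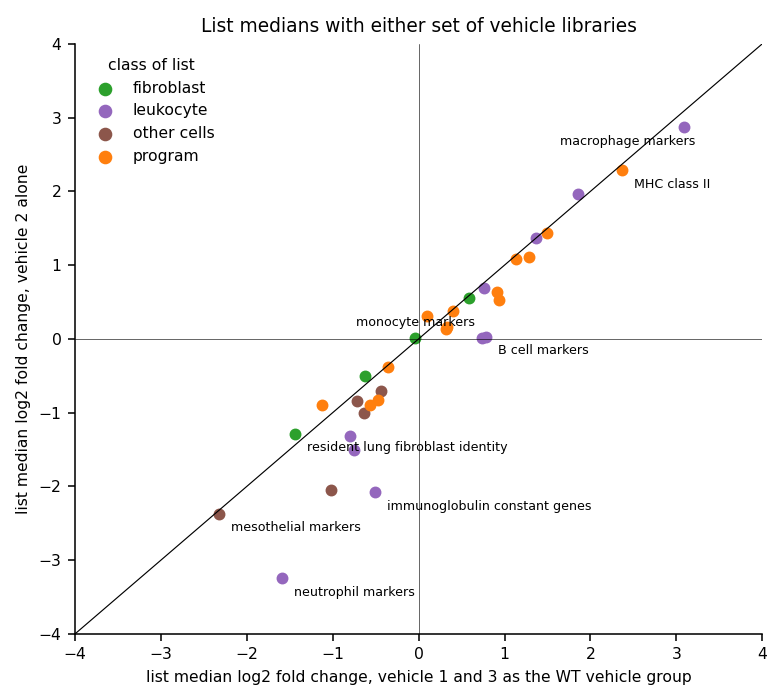
Median log2 fold change of 33 gene lists, 1 point per list coloured by class, with vehicle replicates 1 and 3 as the *WT* vehicle group (x axis) and with vehicle replicate 2 alone (y axis), and a line of equality. Macrophage and MHC class II genes lie close to the line, whereas neutrophil markers move from -1.59 to -3.25 and monocyte and B cell markers from 0.74 and 0.78 to 0.01 and 0.03.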

How the data were processed

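Pdgfra+ (CD140a+) cells were sorted from mouse lung, RNA was extracted with TRIzol, and full-length cDNA was amplified with the SMART-Seq v4 kit and sequenced in pairs. By the study's methods reads were aligned to GRCm38 with HISAT2, and the submitters' processing notes also name FastQC. The program that counted reads per gene is not given in the sources used here, nor is use of strand. The authors deposited raw read counts of 40760 genes and a normalized signal, which equals each count divided by a size factor per library. Every library column was used.

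Counts were tested with edgeR 4.0.16 in R 4.3.3 (quasi-likelihood F test, robust, TMM normalization, filterByExpr by group, 12 libraries in 4 groups, Benjamini-Hochberg adjustment over 17418 genes). A fold change above 2 and an adjusted p under 0.05 made a call. Standard errors are the absolute log2 coefficient divided by the root of F. Where a group was at 0 in every library no standard error is given. Simulated counts of 16697 genes were fitted, with changed genes drawn only at a mean of 1 log2 CPM or more. No simulated library was made to stand apart from its group as vehicle replicate 2 does. The fit called 93% of genes changed by 1.5 and 98% of those changed by 2 on the log2 scale, with 2 false calls. These rates do not cover scarcer genes or such a library. The floor of 3 counts covers counting error alone.

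The named genes were the 10 largest rises and falls among calls at 5 log2 CPM or more with groups that did not overlap (V genes left out), the first gene of each of 35 lists with its 2 largest called rises and falls, the 5 largest differences between genotypes in each direction, *Pear1* and *Pdgfra*. Other genes were named after their values were seen, and the members and lists were chosen with earlier results of these data known. Gene positions are those of GENCODE M21, and 40452 of the 40760 identifiers matched. *Ahsp* was not in the table, and *Ccl19* was among the list members that did not pass the filter. Some list members are counted but not reported here by name. For a symbol held by several identifiers the one with most counts was used. Alternatives were other scaling (DESeq2 1.42.0 size factors, library totals), other filters, DESeq2's Wald test, limma 3.58.1 on log2(normalized + 1), a replicate block, the 6 *WT* libraries alone and each library left out.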

Additional observations from a re-analysis of the deposited data

Results flagged for a closer look

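For 10 genes the bleo effect in *WT* differed from that in the libraries labelled Pear1-/- by the test of the difference itself, and these were the 5 largest in each direction among genes called in *WT* at 5 log2 CPM or more. The log2 fold change was larger in *WT* by 2.71 for *Ms4a7*, 2.63 for *Lilra5*, an activating receptor of myeloid cells, 2.53 for *Prkcb*, a protein kinase C of leukocytes, 2.49 for *Ier5* and 2.29 for *Tanc2* (SE 0.13, 0.16, 0.13, 0.15 and 0.20). *Ms4a7* had 2863, 2809 and 2849.9 normalized counts in *WT* bleo and 461, 481 and 503 in the libraries labelled Pear1-/- bleo, above vehicle values between 103 and 144 in both. *Tanc2* had between 621 and 669 in *WT* bleo and between 95.3 and 143 in those labelled Pear1-/- bleo.

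The effect was lower in *WT* by differences of -5.03 for *Igkv16-104*, -4.73 for *Igkv8-21*, -3.998 for *Ighv1-18*, -3.68 for *Ighv1-54* and -3.67 for *Igkv1-110* (SE 0.57, 0.46, 0.61, 0.43 and 0.69). All 5 are immunoglobulin V genes, whose profile in *WT* vehicle replicate 2 went with the libraries labelled Pear1-/- vehicle. *Ighv1-18*, for example, had 27706, 7550.4 and 26145 normalized counts in *WT* vehicle and between 5504 and 6857 in those labelled Pear1-/- vehicle. Each of the 10 differences kept its direction and its call in every alternative run, the one against vehicle replicate 2 alone included.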

How the results depend on the processing

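The number of genes called in *WT* moved by over 1.5 times with no filter on low counts (13891 of 40760 genes) and without vehicle replicate 2, and leaving out any 1 *WT* library gave between 5794 and 9184. The stricter filter left fewer genes to test (14285) and 3975 calls, and the 6 *WT* libraries alone gave 4916. DESeq2's Wald test called 5850 genes and limma 5853. The genotype contrast gave between 2415 and 4461 genes when 1 of the 12 libraries was left out, the highest without *WT* vehicle replicate 2. The fall in genes detected per library was 7239 on average (-9598 without vehicle replicate 2, and -3225 for genes above 10 counts). With the replicate block 5861 genes were called in *WT* and 2641 for the genotype contrast. Deviations of same-numbered vehicle and bleo libraries correlated between -0.03 and -0.002, and those of other pairs between -0.004 and 0.016. Bleo libraries differed by little more than counting noise, so this could hardly show a pairing and does not settle whether the numbers pair samples. Of 139 named genes *Fos* and *Hmgcs1*, neither called, changed sign. *Fos* went from 0.02 to -0.0129 (6 *WT* libraries alone), -0.0125 (DESeq2's test), -0.0124 (its size factors), -0.0879 (vehicle replicate 2 alone), -0.0784 (library totals) and -0.0444 (stricter filter), and lay between -0.0211 and 0.14 with 1 library left out. *Hmgcs1* went from -0.01 to 0.31 (vehicle replicate 2 alone) and 0.13 (no filter), and lay between -0.0889 and 0.104 with 1 library left out. The cause was not tested. Of the called named genes, *Vpreb3* and *Igkv4-62* lost their call in the most alternatives. Over all alternatives 525 medians of the 35 gene lists were recomputed. Of these, 187 moved by more than the spread between replicates and 6 changed sign, all 6 for collagen chains, at 0.0075 (vehicle replicate 2 alone), 0.11 (no filter) and between 0.01 and 0.08 with 1 library left out. Medians moved for 28 lists without vehicle replicate 2, 27 against it alone, 24 with no filter and 23 with library totals, against 3 with DESeq2's test. Depth limits the fold change of the 987 of 4062 genes called lower whose bleo libraries were all at the floor of 3 counts.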

Other observations

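Clock genes were looked at after *Nr1d1* was seen among the largest falls, so the choice followed the values. Of the 18 clock genes tested 10 were called lower, *Nr1d1* included, and 0 higher. *Dbp* had 194, 207 and 208 normalized counts in vehicle and 33.98, 26.5 and 25.3 in bleo (log2 fold change -2.81, SE 0.15), and *Nr1d2*, *Hlf*, *Per3*, *Cry2*, *Tef* and *Per2* were called lower at -2.62, -2.12, -1.96, -1.62, -1.41 and -1.13. *Npas2* was also called lower, at -1.59. Without vehicle replicate 2 *Per2* stood at -0.96, under the fold threshold. The core activators *Arntl* and *Clock* stood at -0.23 and 0.24, *Cry1* at 0.09, *Per1* at -0.14, *Ciart* at 0.08, *Bhlhe40* at 0.34 and *Bhlhe41* at -0.16, none of them called. *Nfil3*, which represses the targets of *Dbp*, had 907, 1223 and 924 in vehicle and 2029, 2025 and 1951 in bleo, a log2 fold change of 0.99 just under the threshold.

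Gene classes differed in their share of calls. Of 14735 protein-coding genes tested 1536 were called higher and 3113 lower, of 473 lincRNA genes 49 and 181, and of 352 processed pseudogenes 53 and 59. Processed pseudogenes had a median log2 fold change of 0.32 and lincRNA genes of -0.59, and both classes had a median level under 1 log2 CPM (0.57 and 0.61). These medians cover only genes that passed the filter. At equal depth 1814, 578 and 1859 processed pseudogenes lay above 3 counts in vehicle and 427, 440 and 468 in bleo. Differences between classes were not tested.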
